A study of Mus musculus with 24 samples.

Results

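The Hippo core kinases and adaptors described here are 10 mouse genes: the LATS kinases Lats1 and Lats2, the MST kinases Stk3 and Stk4, the scaffold Sav1, the kinase activators Mob1a and Mob1b, and the upstream adaptors Nf2, Wwc1 and Wwc2. They were selected by name for their place in the pathway and found by their Ensembl identifiers. They are 10 of the 39017 genes in the count files, and all 10 passed the filter on low counts (a mean of 5 or more over the libraries) that left 14361 genes for testing. Expression was measured by RNA-Seq in 24 libraries of NIH 3T3, a mouse fibroblast line that grows without limit in culture, 3 for each of 8 groups. The EV group carried the empty retroviral vector, TAZ4SA and YAP5SA are hyperactive forms of TAZ and YAP in which serines that LATS1/2 phosphorylate were replaced by alanines, and TAZ-CAMTA1 and YAP-TFE3 are the fusion proteins found in the vascular sarcoma epithelioid hemangioendothelioma. TFE3 and CAMTA1 are the full-length fusion partners. These cells had been confluent for 48 h, except that CAMTA1 and a second empty vector group, EVsub, were taken at sub-confluence. All groups carried a retroviral vector and had passed drug selection, the lines were pools of stably transduced cells rather than clones, every construct was driven by the vector and not by the endogenous gene, and by the methods the 3 libraries of a group came from separate transductions.

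In the Hippo pathway MST1/2 (encoded by Stk4 and Stk3), bound to the scaffold SAV1, phosphorylate the LATS kinases and the MOB1 proteins, and MOB1 binding helps to activate LATS. NF2 (merlin) and the WWC proteins (WWC1 is also known as KIBRA) act upstream and help to bring LATS to the membrane. Active LATS phosphorylates YAP and TAZ, which are then held in the cytoplasm or degraded, and nuclear YAP and TAZ act through the TEAD transcription factors. LATS2 and NF2 are known as genes that YAP and TAZ can induce, a negative feedback on the cascade. The question addressed was whether the transcripts of the cascade differ between cells that carry hyperactive TAZ or YAP, or the fusion proteins, and cells that carry the empty vector.

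Library totals ranged from 16471181 to 30132586 counts, and no member had fewer than 256 counts in any library. The share of mitochondrial counts was 2.04 to 2.23% in YAP5SA, 2.95 to 3.19% in TAZ4SA, 3.80 to 4.10% in EV and 4.69 to 5.87% in TFE3, and the 50 most abundant genes took 20.1 to 23.1% of counts in YAP5SA, 17.9 to 24.2% in TAZ4SA and 17.6 to 18.1% in EV. The mouse Camta1 gene was higher in the CAMTA1 libraries than in EVsub (log2 fold change 1.07 ± 0.18 (SE), adjusted p = 0.0019) and Wwtr1, which encodes TAZ, was higher in TAZ4SA than in EV (0.28 ± 0.09, adjusted p = 0.0113), whereas Yap1 was lower in YAP5SA (-0.86 ± 0.08, adjusted p = 8.13e-09). Tfe3 had 68.0 to 74.4 CPM (counts scaled to library size) in the TFE3 libraries and 84.6 to 93.2 CPM in EV, so the mouse gene does not mark those libraries. Its highest mean was 162.9 CPM in YAP5SA. Wwtr1 did not single out TAZ4SA either, at 152.2 to 170.9 CPM beside 138.3 to 165.0 CPM in YAP5SA and 139.3 to 158.1 CPM in TAZ-CAMTA1. Yap1 was low in TAZ4SA too, at a mean of 114.2 CPM beside 184.1 CPM in EV. Whether reads of the constructs were counted under the mouse genes was not tested. All 8 fibroblast markers had counts in every group, while Epcam (epithelial) and Adgre1 (macrophage) were at 0 counts in every library. Of the fibroblast markers, 3 were lower in both TAZ4SA and YAP5SA: mean levels in EV, TAZ4SA and YAP5SA were 1194, 499.8 and 222.1 CPM for Pdgfra, 568.3, 204.7 and 142.2 CPM for Pdgfrb and 890.8, 222.8 and 279.5 CPM for S100a4. Thy1 was higher in both, and Vim in YAP5SA. In TAZ4SA and YAP5SA some markers of other cell types were higher than in EV. The summed level of the 4 leukocyte markers was 13.01 to 58.6 CPM in TAZ4SA, 47.4 to 78.9 CPM in YAP5SA and 2.63 to 3.58 CPM in EV, nearly all from Cd68, with the defining marker Ptprc at no more than 4 counts in any library. Itgam, another of the 4, was also called higher in both groups. It had 9 to 51 counts in TAZ4SA, 15 to 28 in YAP5SA and at most 1 in EV. The 3 endothelial markers summed to 8.31 to 11.9 CPM in TAZ4SA, 7.03 to 7.79 CPM in YAP5SA and 0.127 to 0.221 CPM in EV, most of it Kdr, and the 4 epithelial markers stayed at or below 1.05 CPM in each group. With the fusion proteins the endothelial sum was 1.62 to 2.61 CPM in TAZ-CAMTA1 and 1.07 to 1.65 CPM in YAP-TFE3. In TAZ-CAMTA1 most of it was Cdh5 (mean 1.67 CPM), with Kdr at 0.273 CPM. In TFE3 the sum was 0.804 to 1.15 CPM, and 1 of the 2 tested endothelial markers was called higher. Cdh1, an epithelial marker at a mean of 0.208 CPM in EV, was called higher with both fusion proteins, at 0.663 CPM in TAZ-CAMTA1 and 0.654 CPM in YAP-TFE3. Their part in the results below was not tested. In these bulk libraries fewer cells of a type and less RNA per cell cannot be told apart.

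The 10 genes lie on 9 chromosomes of GRCm38, among them Lats1 at chr10:7681214-7716460, Lats2 at chr14:57689662-57758388, Wwc1 at chr11:35838400-35980527 and Nf2 at chr11:4765845-4849536. Promoter windows of 250 bases before and 50 after the start were taken from RefSeq (GRCm38.p6), which gave 11 windows for 9 of the 10 members. They were searched on both strands for GGAATG, the core of the motif that TEAD factors bind, for CACGTG, the E-box form bound by TFE3 and its relatives, and for TGANTCA, the motif of AP-1. GGAATG was in the windows of 4 members (Lats2, Wwc2, Sav1 and Mob1a) and in 14.7% of all 32851 windows. CACGTG was in those of 3 members (Lats2, Stk4 and Mob1b) and in 7.15% of all windows, and TGANTCA was in no member's window and in 7.81% of all. The stretches below are those that hold a match, together with the promoter of Wwc1, the member with the largest rise, in which none of the 3 was found. Capitals mark the matches (CATTCC is GGAATG on the other strand), and each sequence is given 5′ to 3′ along its gene. The Lats2 stretch is chr14:57746109-57746138 (minus strand) and its last 15 bases are in the 5′ UTR. The others are Wwc2 at chr8:47990555-47990794 (minus), inside an exon of a Wwc2 transcript annotated as a retained intron, Wwc1 at chr11:35980528-35980777 (minus), Stk4 at chr2:164074066-164074095 (plus), Sav1 at chr12:69987091-69987120 (minus), Mob1a at chr6:83325818-83325847 (plus), inside a UTR of the neighbouring gene Mthfd2, and Mob1b at chr5:88720734-88720763 (plus). A match describes the letters and was not tested as a binding site.
Lats2: ggggtCACGTGacgcccgtGGAATGccaac
Wwc2: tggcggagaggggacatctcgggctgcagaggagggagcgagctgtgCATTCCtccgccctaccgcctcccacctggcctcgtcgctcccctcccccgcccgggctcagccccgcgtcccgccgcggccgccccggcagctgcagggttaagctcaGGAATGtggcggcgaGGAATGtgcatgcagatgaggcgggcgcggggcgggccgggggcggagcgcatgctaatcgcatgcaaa
Wwc1: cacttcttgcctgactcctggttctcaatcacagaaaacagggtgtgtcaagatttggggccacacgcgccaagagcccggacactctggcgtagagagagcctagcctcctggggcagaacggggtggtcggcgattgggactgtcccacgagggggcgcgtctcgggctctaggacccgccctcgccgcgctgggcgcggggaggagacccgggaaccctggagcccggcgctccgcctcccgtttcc
Stk4: ccgccactgtgcCACGTGactcccgccgct
Sav1: cggctttcccagCATTCCcagcggcgcggg
Mob1a: tggccagaatagCATTCCtttaggagaaga
Mob1b: aaccccccaggtCACGTGctcgggcaagct

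In EV cells all 10 transcripts were present, and their levels differed. Per kilobase of the longest transcript, Mob1a was highest at a mean of 70.2 CPM per kb, followed by Sav1 at 32.0, Stk3 at 29.8 and Nf2 at 27.3 CPM per kb. Wwc2 (14.2), Lats1 (12.1), Lats2 (10.8) and Stk4 (10.1 CPM per kb) were in a middle range, and Mob1b (6.46) and Wwc1 (3.05 CPM per kb) were lowest. In the following, levels are CPM scaled by TMM and are compared within a gene only. Across the 8 groups Wwc1 spanned the widest range of group means, with the highest group 6.08 times the lowest, followed by Mob1b (4.03 times) and Lats2 (3.24 times). Nf2 varied least (1.39 times).

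**Figure D1:**
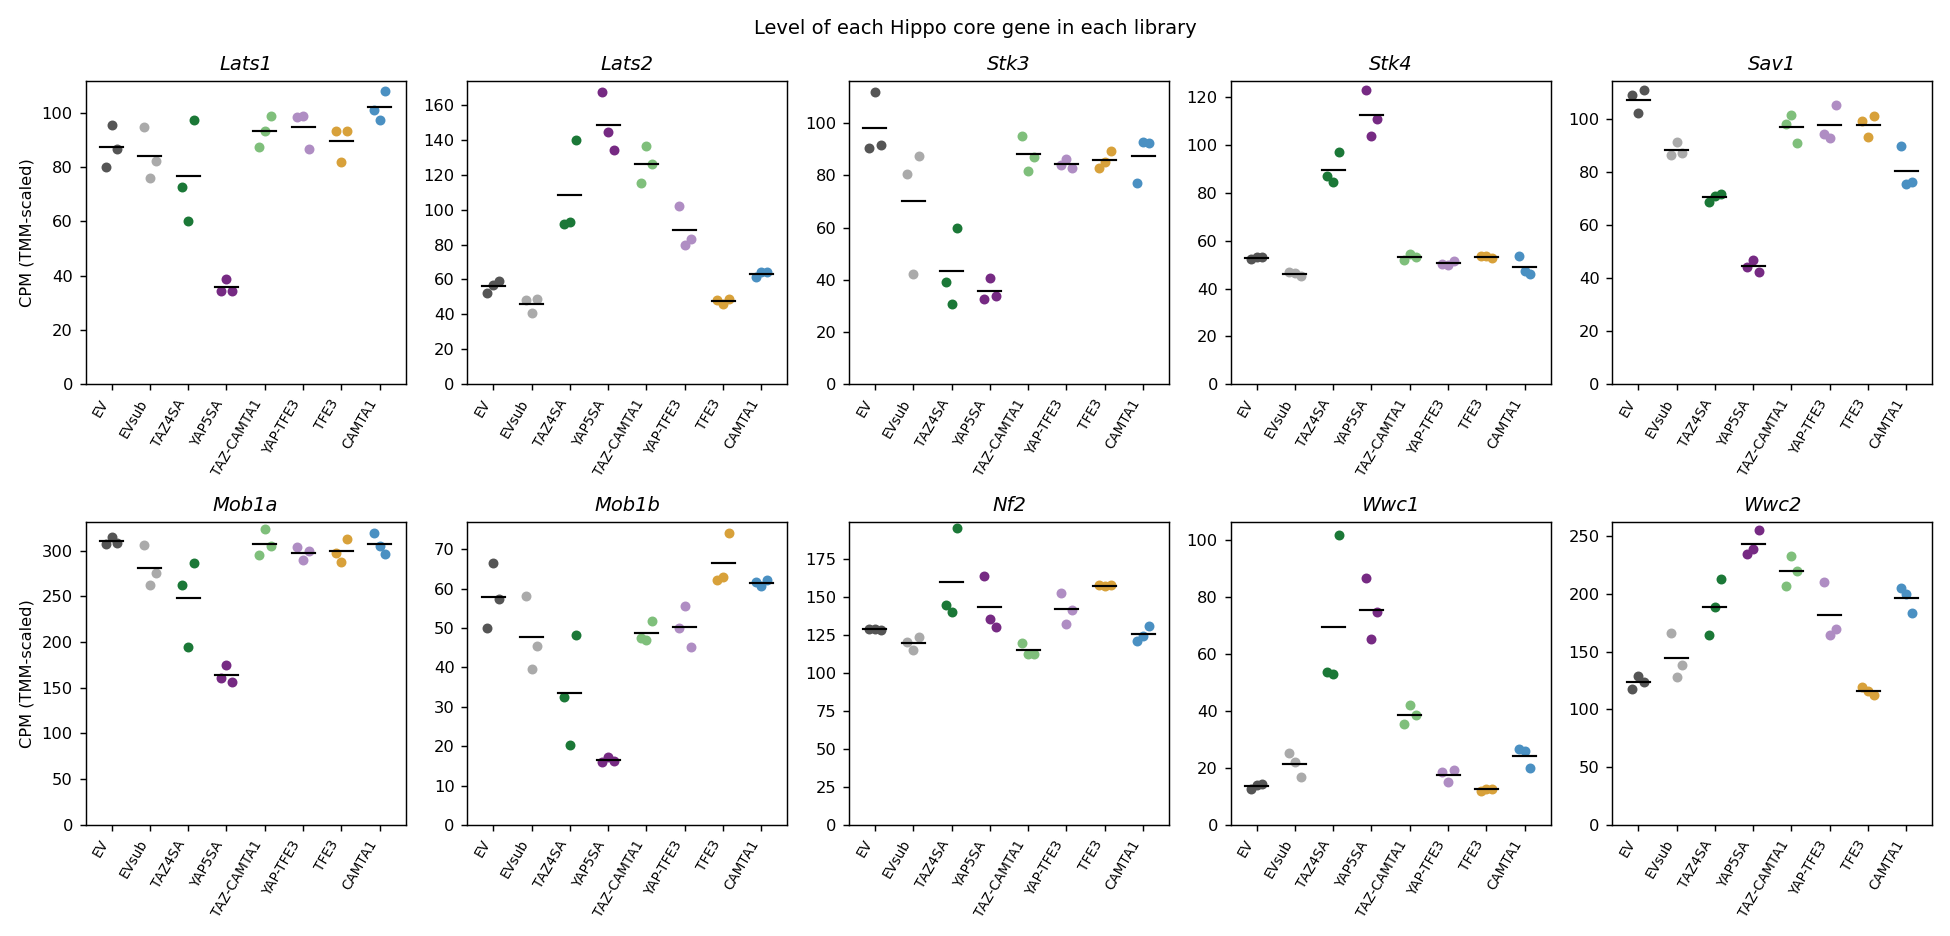
Level of each of the 10 genes (vertical axis, CPM after TMM scaling, from 0) in each of the 24 libraries, grouped by construct on the horizontal axis, with points for libraries and a bar for the mean of 3. The YAP5SA libraries lie below all other libraries for Lats1, Sav1, Mob1a and Mob1b, and both TAZ4SA and YAP5SA lie above EV for Lats2, Stk4, Wwc1 and Wwc2.

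The LATS kinases, which phosphorylate YAP and TAZ, moved in different directions in YAP5SA, where Lats2 rose and Lats1 fell. Lats2 had 52.0, 57.1 and 59.2 CPM in the EV libraries, 92.1, 92.7 and 139.9 CPM in TAZ4SA, and 167.4, 144.4 and 134.2 CPM in YAP5SA. In the fusion proteins it had 115.2, 136.4 and 126.4 CPM with TAZ-CAMTA1 and 102.3, 79.9 and 83.4 CPM with YAP-TFE3. All of these libraries were above every EV library. The log2 fold change against EV was 0.95 ± 0.14 (SE) in TAZ4SA (adjusted p = 4.76e-06), 1.41 ± 0.14 in YAP5SA (8.45e-09), 1.17 ± 0.14 in TAZ-CAMTA1 (1.83e-06) and 0.66 ± 0.14 in YAP-TFE3 (0.00156). TFE3 did not pass the test (-0.23 ± 0.14, adjusted p = 0.478), and neither did CAMTA1 against EVsub (0.46 ± 0.14, adjusted p = 0.0755). In the order of group means YAP5SA, TAZ-CAMTA1, TAZ4SA and YAP-TFE3 overlapped with their neighbours, and YAP-TFE3 was apart from CAMTA1, CAMTA1 from EV, and EV from TFE3. Lats2 shares 2955 exon bases with the annotated gene Gm49361 on the same strand, which has no row in the count files.

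Lats1 fell in YAP5SA. It had 80.1, 95.5 and 86.6 CPM in EV, 34.4, 38.7 and 34.5 CPM in YAP5SA, and 72.6, 60.04 and 97.4 CPM in TAZ4SA. YAP5SA was below every other library of the series, while TAZ4SA overlapped with EV. The log2 fold change was -1.28 ± 0.13 in YAP5SA (adjusted p = 2.02e-08) and -0.19 ± 0.13 in TAZ4SA (adjusted p = 0.23). Replicate 3 of TAZ4SA decided the second call: without it the log2 fold change was -0.40 (adjusted p = 0.0048). The 7 other groups overlapped with their neighbours in the order of levels, from CAMTA1 (102.1 ± 5.4 CPM, SD, n = 3) to TAZ4SA (76.7 ± 19.0 CPM).

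The MST kinases showed the same kind of split. Stk4, which encodes MST1, had 52.5 to 53.0 CPM in EV, 87.0, 84.5 and 97.1 CPM in TAZ4SA and 122.9, 103.8 and 111.0 CPM in YAP5SA. Its libraries were tightly grouped elsewhere, and YAP5SA, TAZ4SA and the remaining groups did not overlap. It rose by 0.76 ± 0.08 on the log2 scale in TAZ4SA (adjusted p = 1.14e-07) and by 1.09 ± 0.08 in YAP5SA (1.88e-10), against 0.01 ± 0.08 in TAZ-CAMTA1 (0.939) and -0.06 ± 0.08 in YAP-TFE3 (0.684). Stk3, which encodes MST2, had 90.6, 112.1 and 91.5 CPM in EV, 39.3, 30.8 and 59.7 CPM in TAZ4SA and 32.6, 40.8 and 33.9 CPM in YAP5SA. Both groups lay below all EV libraries and overlapped with each other. It fell by 1.17 ± 0.21 in TAZ4SA (adjusted p = 5.91e-05) and by 1.45 ± 0.21 in YAP5SA (2.40e-06), and did not pass the test in TAZ-CAMTA1 (-0.15 ± 0.20, adjusted p = 0.642) or YAP-TFE3 (-0.22 ± 0.20, adjusted p = 0.548). In EVsub replicate 2 stood apart from its group, at 42.3 CPM of Stk3 beside 80.4 and 87.5 CPM. Stk3 in EVsub against EV (-0.48 ± 0.20, adjusted p = 0.0954) passed the test without EVsub replicate 3 (-0.68, adjusted p = 0.0277), with no filter (0.034), with the GC correction (-0.45, 0.022) and with GC and length (0.0242).

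The balance of each kinase pair was followed within single libraries as a ratio of CPM, which does not depend on library scaling. Opposite shifts of both genes against EV were called in TAZ4SA and YAP5SA for the MST pair and only in YAP5SA for the LATS pair. GC content is 43.0% in Lats1 and 52.2% in Lats2, and 38.4% in Stk3 and 46.8% in Stk4. The trend with GC content described below can therefore enter the ratios, and its size in them was not tested. The ratio of Lats2 to Lats1 CPM was 0.643 ± 0.044 (SD, n = 3) in EV, 1.42 ± 0.14 in TAZ4SA and 4.16 ± 0.61 in YAP5SA. It was 1.35 ± 0.10 in TAZ-CAMTA1 and 0.938 ± 0.118 in YAP-TFE3, and 0.534 to 0.621 as a mean in TFE3, EVsub and CAMTA1. The ratio of Stk4 to Stk3 was 0.544 ± 0.062 in EV, 2.19 ± 0.56 in TAZ4SA and 3.20 ± 0.62 in YAP5SA, and its mean lay between 0.567 and 0.732 in the other 5 groups. In EVsub the libraries differed widely: replicate 2 was at 1.09, above every EV library, beside 0.586 and 0.515 in replicates 1 and 3. Every TAZ4SA and YAP5SA library was above every EV library in both ratios, and in the ratio of Lats2 to Lats1 every library of both fusion proteins was above EV too. No test of the ratios was run, since they were built from the members tested above. How reads shared by paralogs entered the deposited counts is not stated for these files, so a part of the counts within each pair may be uncertain.

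**Figure D2:**
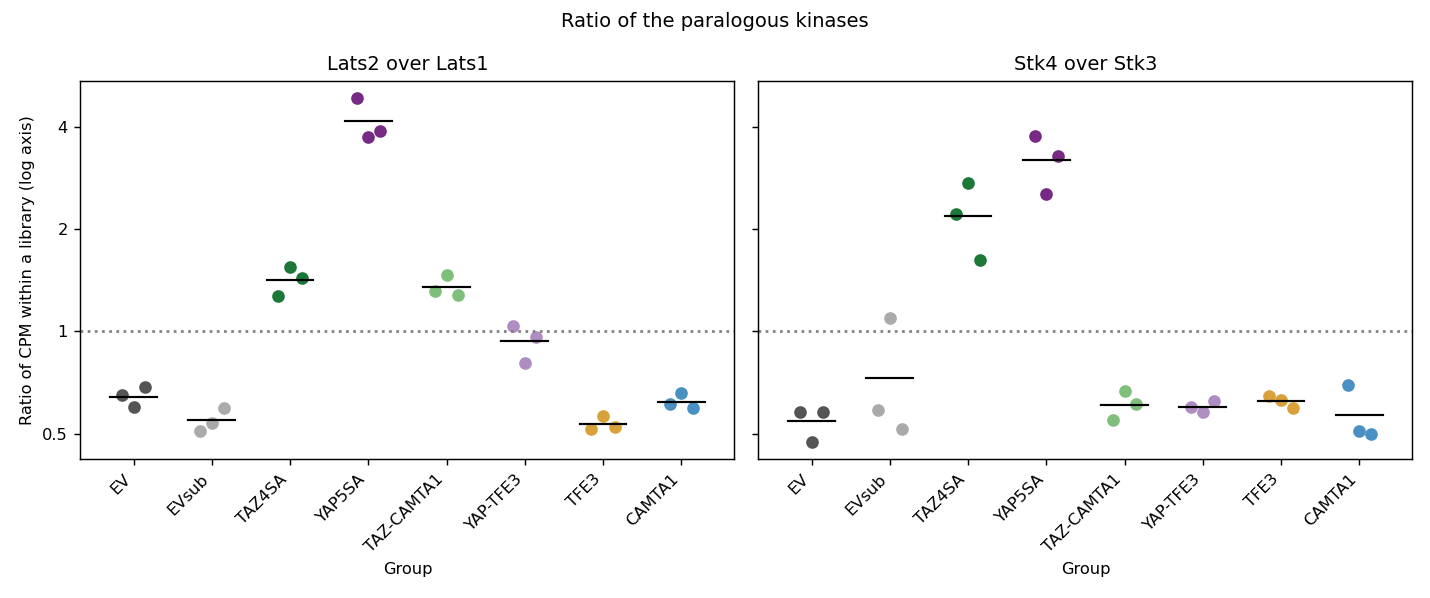
Ratio of CPM within each library (vertical log axis) for Lats2 over Lats1 and for Stk4 over Stk3, by group on the horizontal axis, with points for libraries, a bar for the mean of 3 and a dotted line at equal CPM. Both ratios are above 1 in every TAZ4SA and YAP5SA library, and in TAZ-CAMTA1 only the ratio of Lats2 to Lats1 is. Single libraries of other groups above 1 are EVsub replicate 2 for Stk4 over Stk3 (1.09) and YAP-TFE3 replicate 1 for Lats2 over Lats1 (1.04).

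Sav1, Mob1a and Mob1b, the scaffold of the MST kinases and the activators of LATS, were lower with both full-length proteins. Sav1 had 109.0, 102.4 and 111.0 CPM in EV, 68.7, 71.1 and 71.7 CPM in TAZ4SA and 44.4, 46.9 and 42.4 CPM in YAP5SA. The 3 groups did not overlap, and the log2 fold change against EV was -0.61 ± 0.09 in TAZ4SA (adjusted p = 3.27e-06) and -1.27 ± 0.09 in YAP5SA (3.97e-11). Mob1b had 49.9, 66.5 and 57.3 CPM in EV, 32.5, 20.2 and 48.2 CPM in TAZ4SA and 15.9, 17.4 and 16.2 CPM in YAP5SA. It fell by 0.78 ± 0.19 in TAZ4SA (adjusted p = 0.00172) and by 1.81 ± 0.20 in YAP5SA (5.83e-08), the largest fall among the 10 genes. Mob1a, the more abundant of the MOB1 genes, had 306.6 to 314.6 CPM in EV, 262.1, 194.4 and 286.9 CPM in TAZ4SA and 155.9 to 175.3 CPM in YAP5SA. Its log2 fold change was -0.92 ± 0.11 in YAP5SA (adjusted p = 1.51e-07) and -0.32 ± 0.11 in TAZ4SA (0.0145), and without TAZ4SA replicate 2 the latter was -0.17 and no longer passed (adjusted p = 0.106). In TAZ4SA the spread of both MOB1 genes was wide, and replicate 3 lay nearest to EV. Sav1 shares 1336 exon bases with Atl1 on the opposite strand, and the strand setting of the counting is not given in the sources used here.

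None of the 3 genes passed the test with TAZ-CAMTA1 or YAP-TFE3 against EV. Sav1 had a log2 fold change of -0.15 ± 0.08 with TAZ-CAMTA1 (adjusted p = 0.225) and -0.14 ± 0.08 with YAP-TFE3 (0.317), and Mob1a of -0.01 ± 0.11 (0.959) and -0.06 ± 0.11 (0.789). Mob1b had -0.25 ± 0.19 with TAZ-CAMTA1 (adjusted p = 0.389) and -0.20 ± 0.19 with YAP-TFE3 (0.55), and after a correction for GC content both passed (-0.37, adjusted p = 0.00156, and -0.35, adjusted p = 0.00348), where the median of all genes was -0.10 and -0.11. In EVsub Sav1 was lower than in EV, at 86.7, 91.4 and 87.4 CPM (log2 fold change -0.28 ± 0.08, adjusted p = 0.0202). That call was lost without EV replicate 1 or 3 or without EVsub replicate 1 (adjusted p up to 0.0832), and also with no filter (0.182), with the GC correction (0.255), with GC and length (0.246) and with only the compared groups in the fit (0.0812).

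Among the upstream adaptors the WWC genes rose and Nf2 changed least. Wwc1, which encodes KIBRA, had 12.7, 14.2 and 14.5 CPM in EV, 53.8, 53.1 and 102.0 CPM in TAZ4SA, 86.7, 65.2 and 74.9 CPM in YAP5SA and 35.4, 42.0 and 38.5 CPM in TAZ-CAMTA1. Every library of these 3 groups was above every EV library, and TAZ-CAMTA1 was apart from TAZ4SA and YAP5SA. The log2 fold change was 2.34 ± 0.21 in TAZ4SA (adjusted p = 6.48e-09), 2.45 ± 0.21 in YAP5SA (9.55e-10) and 1.48 ± 0.20 in TAZ-CAMTA1 (1.33e-05), the largest of the 10 genes in each. Without replicate 3 of TAZ4SA its value was 1.95. In YAP-TFE3 Wwc1 had 18.7, 15.1 and 19.2 CPM, also above every EV library, and did not pass the test (0.35 ± 0.20, adjusted p = 0.282). Wwc1 also rose in EVsub against EV (0.64 ± 0.20, adjusted p = 0.0274), at 25.4, 22.1 and 17.0 CPM. That call was lost without any 1 of the 3 EV libraries and without EVsub replicate 1 or 2 (adjusted p up to 0.133), and also with total counts (0.0608) and with the GC correction (0.063).

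Wwc2 had 117.6, 129.0 and 123.3 CPM in EV, 164.0, 188.3 and 212.8 CPM in TAZ4SA, 234.9, 238.9 and 255.3 CPM in YAP5SA, 206.9, 232.8 and 219.5 CPM in TAZ-CAMTA1 and 210.0, 164.2 and 169.8 CPM in YAP-TFE3. Like Lats2 it rose with each of the 4 proteins, by 0.61 ± 0.11 (adjusted p = 8.41e-05), 0.98 ± 0.11 (9.29e-08), 0.83 ± 0.11 (1.08e-05) and 0.56 ± 0.11 (0.0012) on the log2 scale in that order. It was also the only member called in CAMTA1 against EVsub (0.44 ± 0.11, adjusted p = 0.0364), and that call was lost without CAMTA1 replicate 1 or 2 or EVsub replicate 2 or 3 (adjusted p up to 0.231). Wwc2 shares 995 exon bases with Cldn22 on the opposite strand. Nf2, which encodes merlin, had 128.3 to 129.0 CPM in EV, 144.5, 140.2 and 195.3 CPM in TAZ4SA and 163.8, 135.2 and 130.3 CPM in YAP5SA. It rose by 0.31 ± 0.11 in TAZ4SA (adjusted p = 0.0162), and without replicate 3 the value was 0.15 (adjusted p = 0.176). That call was also lost with total counts (0.358), with no filter (0.0771) and with 10 counts in every library (0.0595). The same held with the GC correction (0.327), with GC and length (0.132) and with only the compared groups in the fit (0.224). In YAP5SA Nf2 had 0.15 ± 0.11 (adjusted p = 0.211), in TFE3 0.29 ± 0.11 (0.177) with all 3 libraries above EV, and in TAZ-CAMTA1 -0.17 ± 0.11 (0.298).

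Counted over the cascade, TAZ4SA against EV called 9 of the 10 members, with 5 higher and 4 lower, where 57.5% of all tested genes were called (31.1% higher and 26.4% lower). YAP5SA against EV called 9, with 4 higher and 5 lower, beside 71.2% of all tested genes (36.3% higher and 34.9% lower). Lats2, Stk4, Wwc1 and Wwc2 were higher in both and Stk3, Sav1, Mob1a and Mob1b lower in both, and the comparisons share the EV libraries. The members that fell have low GC content, and the shares of such genes called lower, which are larger, are given below. TAZ-CAMTA1 called 3 members, all of them higher (background 21.5%, with 12.5% higher and 8.98% lower), and YAP-TFE3 called 2, both higher (background 15.3%, with 10.6% higher and 4.74% lower). In TFE3 edgeR called no member (background 3.38%, with 2.36% higher and 1.02% lower), with 1 member at an unadjusted p under 0.05, and DESeq2 called none either. CAMTA1 against EVsub called 1 member, higher (background 2.18%, with 1.29% higher and 0.891% lower). EVsub against EV called 2, with 1 higher and 1 lower (background 22.1%, with 12.5% higher and 9.59% lower). The median log2 fold change over the 10 members was 0.06 in TAZ4SA and -0.38 in YAP5SA, beside 0.05 and 0.01 over all tested genes. The median size of the change, without its sign, was 0.69 in TAZ4SA and 1.28 in YAP5SA, beside 0.54 and 0.81 over all tested genes, and 0.16 in TAZ-CAMTA1 and 0.17 in YAP-TFE3, beside 0.26 and 0.22. The split of all called genes depended on the scaling: with total counts in place of TMM, 3565 were higher and 6775 lower in YAP5SA (5208 and 5012 with TMM) and 3424 and 4747 in TAZ4SA (4465 and 3788), and the members split into 4 higher and 5 lower, and 4 and 4.

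The libraries of the groups compared did not overlap for 9 of 10 members in TAZ4SA against EV, where 56.0% of all tested genes did not, and for 10 in YAP5SA, where 75.5% did not. The count was 5 in TAZ-CAMTA1 (45.5% of all tested genes), 7 in YAP-TFE3 (36.6%), 4 in TFE3 (31.0%), 4 in CAMTA1 against EVsub (23.8%) and 7 in EVsub against EV (35.9%). In the direct contrasts it was 6 for TAZ-CAMTA1 against TAZ4SA (55.2%) and 9 for YAP-TFE3 against YAP5SA (75.2%).

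**Figure D3:**
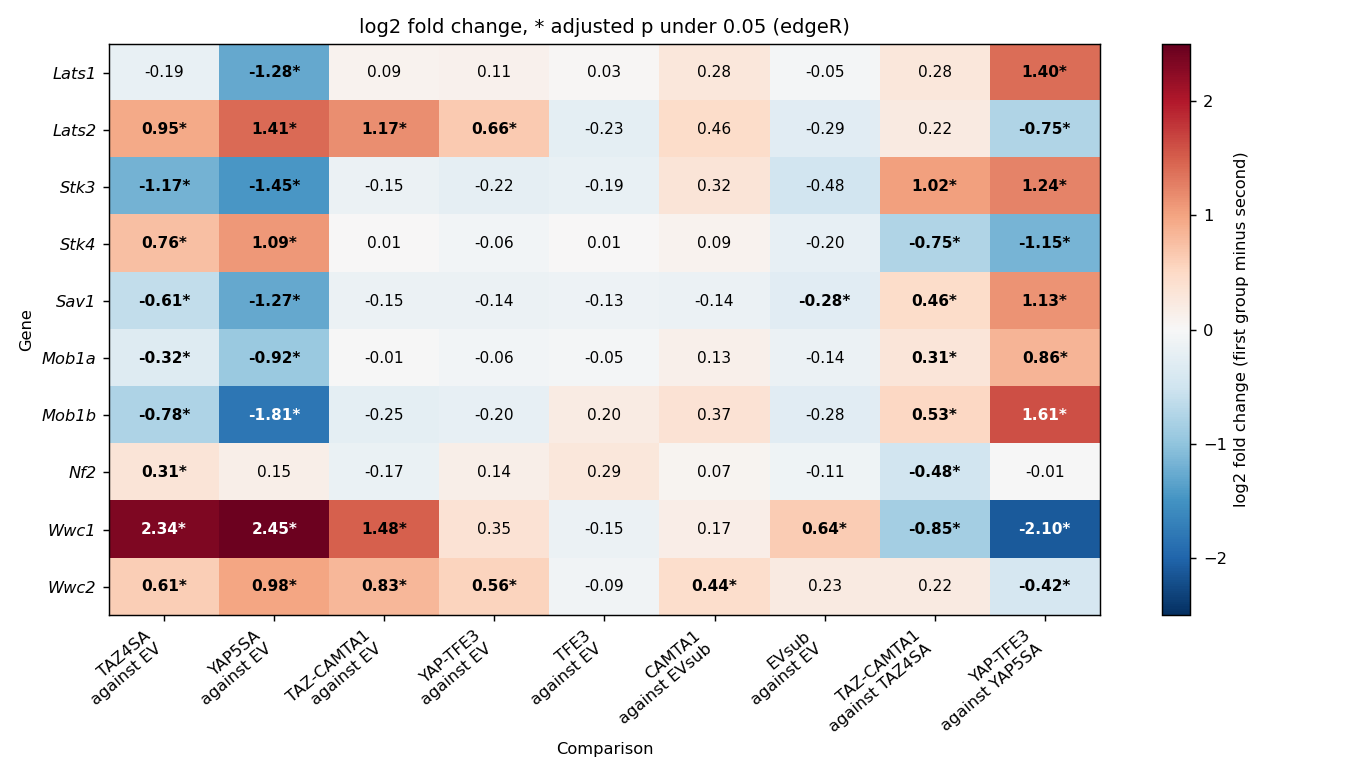
Colour map of the log2 fold change (first group minus second, red higher and blue lower) of each of the 10 genes (rows) in the 9 comparisons (columns), with the value printed and an asterisk where edgeR's adjusted p was under 0.05. Lats2 and Wwc2 are red and called in all 4 columns of TAZ4SA, YAP5SA and the fusion proteins, while no fall called with TAZ4SA or YAP5SA is called with a fusion protein, where the values of those genes lie between -0.25 and 0.11.

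The fusion proteins were then compared directly with the full-length protein whose part they carry. TAZ-CAMTA1 against TAZ4SA called 7 of 10 members, 4 higher and 3 lower (background 54.7%, with 26.6% higher and 28.1% lower). Stk3 was higher with the fusion protein (1.02 ± 0.21, adjusted p = 0.000316), as were Mob1b (0.53 ± 0.19, 0.0259), Sav1 (0.46 ± 0.08, 0.000113) and Mob1a (0.31 ± 0.11, 0.0193). Wwc1 (-0.85 ± 0.20, adjusted p = 0.000948), Stk4 (-0.75 ± 0.08, 2.39e-07) and Nf2 (-0.48 ± 0.11, 0.000792) were lower. Lats2 (0.22 ± 0.13, adjusted p = 0.177), Wwc2 (0.22 ± 0.11, 0.0958) and Lats1 (0.28 ± 0.13, 0.0744) did not pass the test, and all 10 members passed it once TAZ4SA replicate 3 was left out, with Wwc1 at -0.47, Nf2 at -0.31 and Mob1b at 0.88. The call of Mob1b was lost without TAZ4SA replicate 1 or 2 or TAZ-CAMTA1 replicate 3 (adjusted p up to 0.168), and that of Mob1a without TAZ4SA replicate 2 or TAZ-CAMTA1 replicate 2 (adjusted p up to 0.139). Nf2 just missed the threshold with total counts (-0.33, adjusted p = 0.0516) and with only the compared groups in the fit (-0.46, 0.0516). YAP-TFE3 against YAP5SA called 9 of 10, 5 higher and 4 lower (background 70.9%, with 36.4% higher and 34.5% lower). Mob1b was higher with the fusion protein (1.61 ± 0.20, adjusted p = 3.24e-07), as were Lats1 (1.40 ± 0.13, 6.82e-09), Stk3 (1.24 ± 0.21, 1.92e-05), Sav1 (1.13 ± 0.09, 2.73e-10) and Mob1a (0.86 ± 0.11, 4.01e-07). Wwc1 (-2.10 ± 0.20, adjusted p = 8.70e-09), Stk4 (-1.15 ± 0.08, 1.17e-10), Lats2 (-0.75 ± 0.14, 4.11e-05) and Wwc2 (-0.42 ± 0.11, 0.0019) were lower, and Nf2 had -0.01 ± 0.11 (0.922). With total counts in place of TMM, 4816 genes were higher and 2950 lower in TAZ-CAMTA1 against TAZ4SA (3813 and 4041 with TMM), with 6 members higher and 2 lower. In YAP-TFE3 against YAP5SA 7066 were then higher and 3386 lower (5230 and 4954 with TMM), with 6 members higher and 3 lower.

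GC content moved with these results. The 5 members that fell in YAP5SA are the 5 with the lowest GC content of the longest transcript: Mob1b (37.9%), Stk3 (38.4%), Sav1 (40%), Lats1 (43.0%) and Mob1a (43.4%). Stk4 has 46.8%, Wwc2 50.01%, Lats2 52.2%, Nf2 53.5% and Wwc1 57.1%. The 14208 tested genes with a value were split by GC content into 5 bins. The median log2 fold change in YAP5SA rose from -0.56 in the bin with the lowest GC content to 0.33 in the highest, and in TAZ4SA from -0.16 to 0.19. All 5 members that fell in YAP5SA lie in the lowest bin. Of the genes in that bin, 52.7% were called lower and 20.5% higher in YAP5SA, beside 34.9% and 36.3% of all tested genes. In TAZ4SA 32.4% of them were called lower and 20.9% higher, beside 26.4% and 31.1%. The trend also differed between libraries of one group: the Spearman correlation across genes between GC content and a library's deviation from the mean of all libraries was 0.31 in TAZ4SA replicate 2 and -0.10 in TAZ4SA replicate 3, and 0.22 in EVsub replicate 2 beside -0.26 and -0.07. Genes are not independent replicates, so no p is given. With a smooth GC trend removed from each library, an alternative chosen after seeing the data, all 5 falls in YAP5SA were smaller and still passed the test. Mob1b was then at -0.95 (adjusted p = 1.87e-09), Lats1 at -0.92 (2.62e-09), Stk3 at -0.65 (0.000353), Sav1 at -0.63 (0.000749) and Mob1a at -0.59 (4.59e-07). In TAZ4SA Stk3 was at -0.90 (adjusted p = 1.46e-05) and Mob1b at -0.50 (2.48e-05), Sav1 at -0.35 just missed the threshold (0.0503), and Nf2 at 0.14 lost its call (0.327). The rises kept most of their size: in YAP5SA Stk4 was at 1.19, Lats2 at 1.21, Wwc2 at 0.90 and Wwc1 at 2.14. In the direct contrasts the correction ended the calls of Sav1 (0.08, adjusted p = 0.68), Mob1a (0.14, 0.108) and Mob1b (0.12, 0.213) in TAZ-CAMTA1 against TAZ4SA and of Stk3 (0.29, 0.0718) in YAP-TFE3 against YAP5SA. Others became smaller and still passed: Stk3 in TAZ-CAMTA1 against TAZ4SA (0.63, adjusted p = 0.00081), and in YAP-TFE3 against YAP5SA Lats1 (0.90, 3.88e-09), Mob1b (0.60, 1.80e-06), Mob1a (0.40, 7.27e-05) and Sav1 (0.36, 0.0371). With a trend on transcript length removed as well, Mob1b in YAP5SA against EV was at -0.69 and Lats1 at -0.68. Stk3, Sav1 and Mob1a were at -0.63, -0.61 and -0.48, and the rises there were between 1.16 (Wwc2) and 2.26 (Wwc1). In YAP-TFE3 against YAP5SA Lats1 was then at 0.61, Sav1 at 0.33, Mob1a at 0.28 and Mob1b at 0.26. All of these passed the test (adjusted p at most 0.0477), and Stk3 in that contrast did not (0.27, 0.0976). With this correction the split of all called genes also moved, to 1646 higher and 2582 lower in TAZ-CAMTA1 (1799 and 1289 without it) and 1350 and 1948 in YAP-TFE3 (1523 and 680). The source of the trend was not tested.

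**Figure D4:**
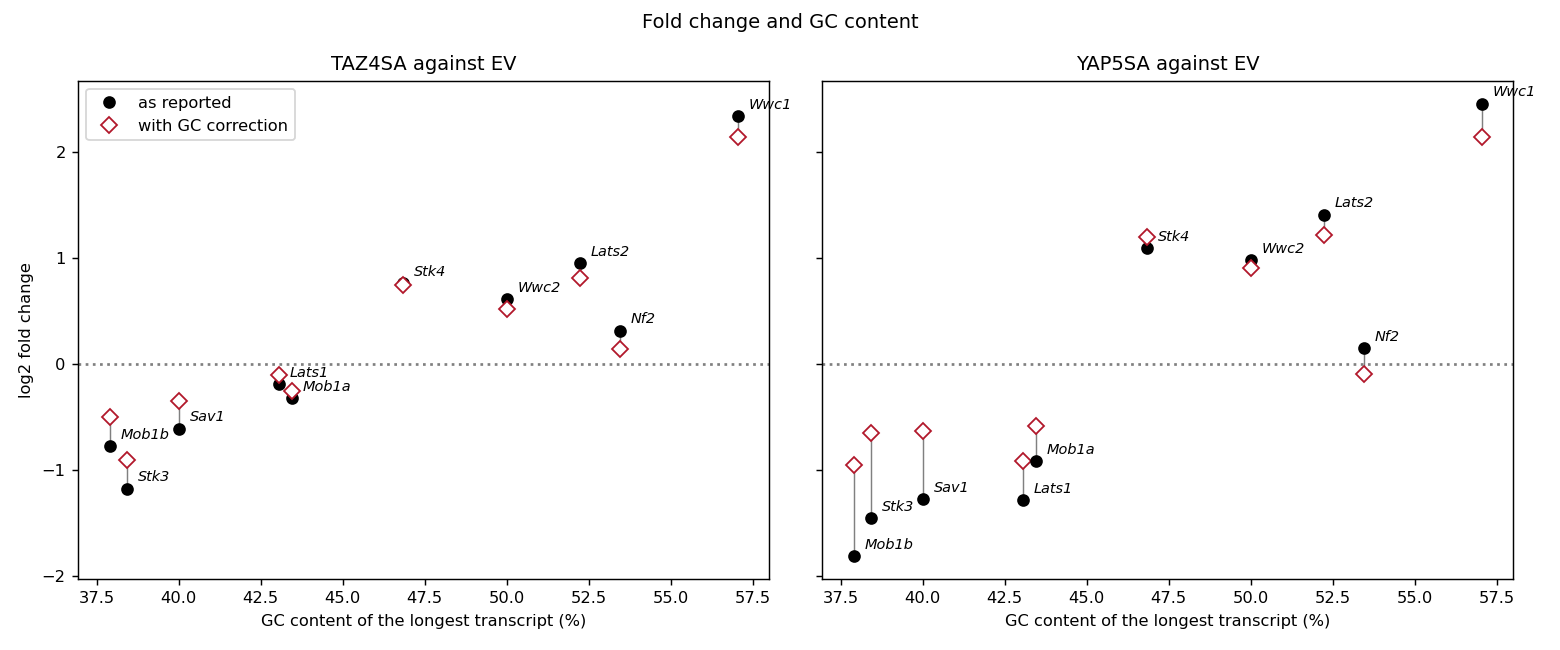
GC content of the longest transcript (horizontal axis, %) against the log2 fold change (vertical axis) of the 10 genes in TAZ4SA and in YAP5SA, each against EV, with filled points as reported and open diamonds after the GC correction. The genes from Mob1b to Mob1a lie below 0 before and after correction in both plots, and move toward 0 most in YAP5SA, where Mob1b goes from -1.81 to -0.95.

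The neighbourhood of the cascade was described by 5 lists of other pathway genes. Over all tested genes, 31.1% were called higher and 26.4% lower in TAZ4SA, and 36.3% and 34.9% in YAP5SA. The shares were 12.5% and 8.98% in TAZ-CAMTA1, and 10.6% and 4.74% in YAP-TFE3. The median log2 fold change of all tested genes was 0.05, 0.01, -0.004 and 8.34e-06 in the same order. Of the 12 upstream adaptors (10 tested), 5 were higher and 2 lower in TAZ4SA, 4 higher and 2 lower in YAP5SA, 4 higher in TAZ-CAMTA1 and 4 higher in YAP-TFE3, with a list median of 0.46, 0.32, 0.26 and 0.28 on the log2 scale. Fat1, an atypical cadherin, rose with each of the 4 proteins (1.84 ± 0.20, 2.18 ± 0.20, 1.09 ± 0.20 and 1.53 ± 0.20, adjusted p at most 0.000292) from 100.02 ± 8.5 CPM in EV, and it was also higher in EVsub than in EV (1.08 ± 0.20, adjusted p = 0.000475). Ptpn14, a phosphatase that binds YAP, rose by 1.09 ± 0.11 in TAZ4SA, 1.67 ± 0.11 in YAP5SA and 0.86 ± 0.10 in TAZ-CAMTA1 (adjusted p at most 3.06e-06). Of the 6 RASSF adaptors, which bind MST kinases, 4 were higher and 1 lower in TAZ4SA, 3 higher and 2 lower in YAP5SA, 4 higher in TAZ-CAMTA1 and 1 higher in YAP-TFE3. Rassf2 fell from 93.6 ± 22.5 CPM in EV to 35.2 ± 6.3 CPM in TAZ4SA and 13.4 ± 2.4 CPM in YAP5SA (-1.41 ± 0.23, adjusted p = 2.32e-05, and -2.81 ± 0.25, 1.59e-09). Rassf1 rose by 1.51 ± 0.14 in YAP5SA (adjusted p = 5.64e-09), and Rassf5 by 1.02 ± 0.16 in TAZ4SA and 1.05 ± 0.16 in TAZ-CAMTA1 (1.62e-05 and 5.40e-05).

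Of the 10 MAP4K and TAO kinases and their relatives that can act on LATS in parallel to MST, 6 were higher and 2 lower in TAZ4SA, 4 higher and 3 lower in YAP5SA, 1 lower in TAZ-CAMTA1 and 2 higher in YAP-TFE3. Tnik fell with TAZ4SA (-0.85 ± 0.19, adjusted p = 0.000614), YAP5SA (-1.49 ± 0.20, 6.13e-07) and TAZ-CAMTA1 (-0.82 ± 0.19, 0.00293), and Taok1 fell in YAP5SA (-1.09 ± 0.23, 0.000205). Taok3 rose in TAZ4SA (0.72 ± 0.10, adjusted p = 2.79e-06) and YAP-TFE3 (0.46 ± 0.10, 0.00215), and was the only gene of this list called in TFE3 (0.38 ± 0.10, 0.0322). The STRIPAK complex, a phosphatase assembly that dephosphorylates MST kinases, had 15 of 17 genes tested. In it 3 were higher and 4 lower in TAZ4SA, 6 higher and 6 lower in YAP5SA, and 1 higher with each fusion protein, with list medians of 0.06, 0.06, -0.01 and -0.03. Ppp2r1b, a scaffold subunit of that phosphatase, fell in TAZ4SA (-0.99 ± 0.11, adjusted p = 1.58e-07) and YAP5SA (-1.03 ± 0.11, 3.40e-08). Of the 6 NDR kinases and other MOB proteins, relatives of LATS and MOB1, 1 was higher and 3 lower in TAZ4SA, 1 higher and 4 lower in YAP5SA, 3 lower in TAZ-CAMTA1 and none called in YAP-TFE3. Stk38, which encodes the NDR1 kinase, fell from 147.3 ± 13.8 CPM in EV to 85.4 ± 12.8 in TAZ4SA, 55.9 ± 3.6 in YAP5SA and 106.6 ± 7.6 in TAZ-CAMTA1 (log2 fold changes -0.79 ± 0.11, -1.40 ± 0.11 and -0.47 ± 0.11, adjusted p at most 0.00381). No list was tested as a set, and its counts are to be read beside the share of all tested genes called in the same comparison. The values of the list genes are without the GC correction, which was read out gene by gene for the members only.

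**Figure D5:**
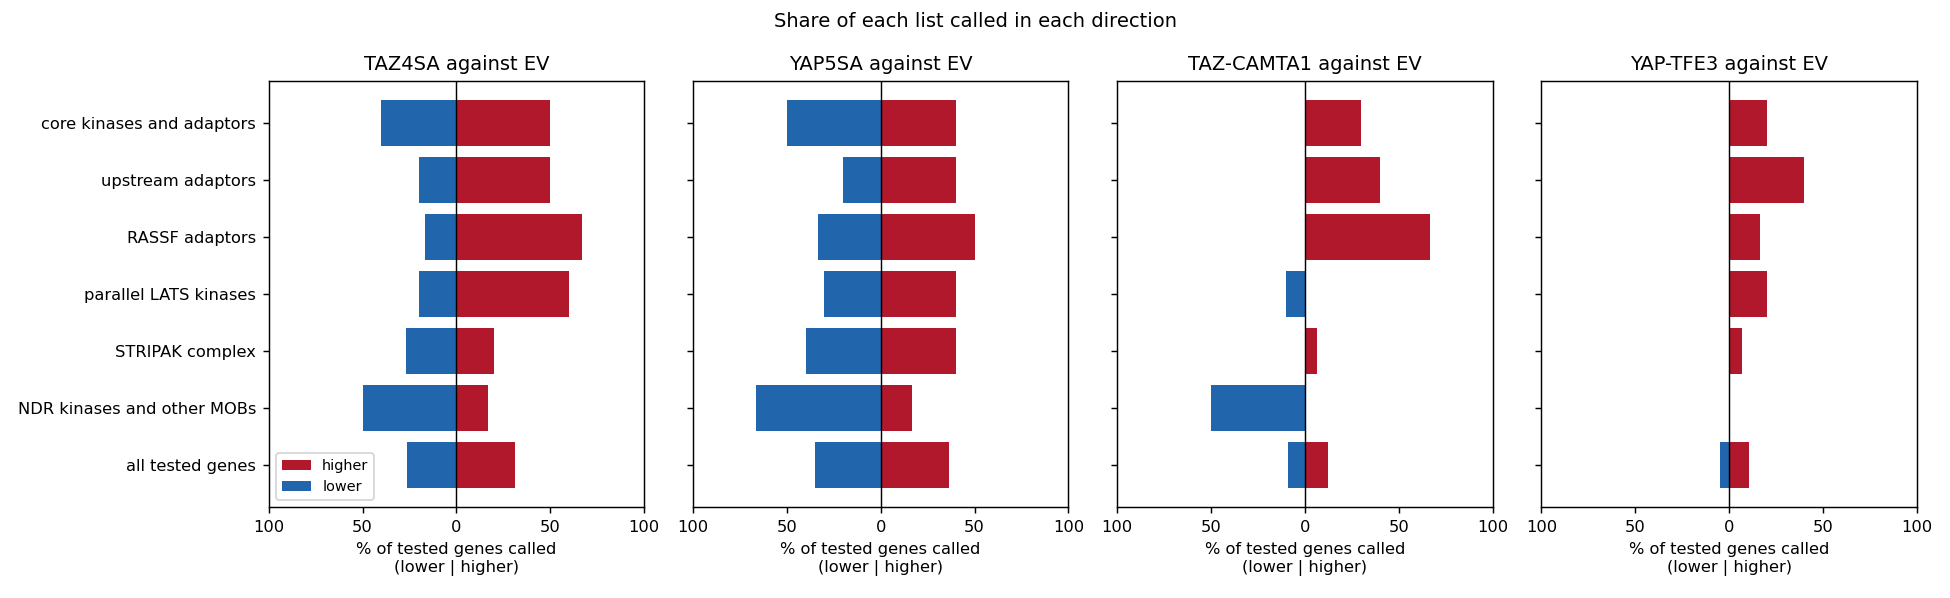
Share of the tested genes of each list (horizontal bars, %) that edgeR called higher (red, right) or lower (blue, left) in 4 comparisons against EV, with the share over all tested genes in the bottom bar. With YAP-TFE3 no gene of the 6 lists was called lower, where 4.74% of all tested genes were, and the lists hold only 6 to 15 tested genes. With TAZ-CAMTA1 3 of 6 NDR kinases and other MOBs and 1 of 10 parallel LATS kinases were lower. No gene of the other lists was lower there, where 8.98% of all tested genes were.

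For the members named here the genes with the most similar profile were taken by Pearson's r of log2 CPM over the 24 libraries, among 11282 genes that averaged 50 counts or more. For Lats2 they were Kcnab3 (r = 0.95), Aif1l (0.94), Adk (0.94), Tead1 (0.94) and Serpinb9b (0.94), of which Tead1 encodes a TEAD factor. For Wwc1 they were Tmem171 (0.95), Sgms2 (0.95), Rnd1 (0.95), Pdgfa (0.95) and Crlf3 (0.94). The closest gene was Ythdf3 for Mob1b (0.99), Capn7 for Mob1a (0.98), Cdh15 for Stk4 (0.98), Azi2 for Lats1 (0.97), Eif1a for Stk3 (0.96) and Slco3a1 for Wwc2 (0.94). Nf2 had the weakest best match, Unc13b (0.80). The points share groups and libraries, so these values describe likeness over these samples only.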

How the data were processed

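The 24 libraries of NIH 3T3 cells fall into 8 groups, with groups and replicate numbers from the labels. YAP-TFE3 replicate 3 carries another number in its description, so its title decided. The deposited values are raw read counts per Ensembl gene, which the authors did not normalize. Per the methods, stranded libraries of polyadenylated RNA were sequenced in pairs and processed with bcbio-nextgen and Hisat2 on mm10. The methods also name Salmon with tximport for gene counts. The deposited values are all whole numbers, and the sources used here do not state which route, or which strand setting, made these files.

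Genes averaging 5 or more counts were fitted in edgeR (version 4.0.16, under R 4.3.3). TMM factors scaled the libraries, 1 model with a coefficient for each group held all 24, and contrasts were tested by quasi-likelihood. A gene is called (DE) where its p, adjusted by Benjamini and Hochberg over all 14361 genes, is under 0.05. Standard errors are the log2 fold change divided by the root of F. Log2 CPM used a prior count of 2. Symbols and coordinates are from GENCODE M21 (GRCm38), which matched 37693 of 39017 identifiers.

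Alternatives were DESeq2 (version 1.42.0), scaling by its size factors, by total counts or by upper quartiles, dropping the low count filter, requiring 10 counts in every library, fitting the compared groups only, a replicate block, a minimum log2 fold change of 1, and leaving out each library. Corrections for GC content alone and with transcript length (smoothing splines with 6 degrees of freedom) were added after seeing the data. The members and lists were chosen with earlier results of these data known. All members are named. Of the other lists, up to 2 DE genes per comparison with the largest change could be named, if libraries did not overlap and the mean was at least 50 counts, and some of these are. Tables and plots were made in Python (3.11.15) with pandas (2.3.3), numpy (2.4.6) and matplotlib (3.10.9), and promoter sequences are from RefSeq. One of the similar profiles is not reported here.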

Additional observations from a re-analysis of the deposited data

Results flagged for a closer look

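The effect of a fusion protein differed from that of its full-length counterpart, by the direct contrast of the groups in edgeR, for 16 member and protein pairs. In TAZ-CAMTA1 minus TAZ4SA the log2 differences were 1.02 for Stk3, 0.53 for Mob1b, 0.46 for Sav1 and 0.31 for Mob1a, and -0.85 for Wwc1, -0.75 for Stk4 and -0.48 for Nf2. In YAP-TFE3 minus YAP5SA they were 1.61 for Mob1b, 1.40 for Lats1, 1.24 for Stk3, 1.13 for Sav1 and 0.86 for Mob1a, and -2.10 for Wwc1, -1.15 for Stk4, -0.75 for Lats2 and -0.42 for Wwc2. TAZ4SA replicate 3 bears on the first set: without it Wwc1 was at -0.47 (adjusted p = 0.0124) and Mob1b at 0.88 (adjusted p = 0.00016). With the GC correction the differences of Stk3, Sav1, Mob1a and Mob1b in both sets, and of Lats1 in the second, were smaller, as given above.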

How the results depend on the processing

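Of the 42 member calls, 30 passed the threshold under every alternative other than a minimum log2 fold change, and 12 were lost under at least 1 of these. The counts of members called in YAP5SA and TAZ-CAMTA1 against EV and in YAP-TFE3 against YAP5SA stayed within 1.5 times of those reported under every alternative. With a minimum log2 fold change of 1, TAZ4SA called 2 members, YAP-TFE3, CAMTA1 and EVsub 0, and TAZ-CAMTA1 against TAZ4SA 1. With only the compared groups in the fit, TFE3 called 1 (Nf2, 0.31, adjusted p = 0.0084), CAMTA1 0, EVsub 1 and TAZ-CAMTA1 against TAZ4SA 4, and with total counts CAMTA1 called 0 and EVsub 1. In CAMTA1, DESeq2 and no filter called 2 each, and GC and length correction 0. In TAZ-CAMTA1 against TAZ4SA both GC corrections called 4. Leaving out 1 library gave 0 to 1 in CAMTA1 and 0 to 3 in EVsub, and 5 to 10 in TAZ-CAMTA1 against TAZ4SA. The replicate block changed 1 call, Wwc2 in CAMTA1, leaving 0 members there, and no other; in no comparison did all 3 same-numbered pairs correlate above 0.1, so the numbers were not taken to pair the libraries. With total counts the median log2 fold change of all genes was -0.12 in TAZ4SA and -0.36 in YAP5SA (0.05 and 0.01 with TMM). It was 0.17 in TAZ-CAMTA1 against TAZ4SA and 0.41 in YAP-TFE3 against YAP5SA (0.003 and 0.05 with TMM). Of the 10340 genes called in YAP5SA with total counts 3565 were higher, beside 5208 of 10220 with TMM. Wwc2 in YAP-TFE3 against YAP5SA was at -0.07 with total counts (adjusted p = 0.653).

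Some values changed sign, most of them near 0 to begin with. Nf2 in YAP5SA was at -0.22 with total counts and -0.0949 with the GC correction. Nf2 in YAP-TFE3 against YAP5SA was at 0.344 with total counts (adjusted p = 0.0319), 0.077 with upper quartiles, 0.00999 with no filter, 0.0731 with 10 counts in every library, 0.133 with the GC correction and between -0.0756 and 0.0958 without 1 library. Stk4 in TAZ-CAMTA1 was at -0.00822 with DESeq2, -0.00813 with size factors, -0.00531 with upper quartiles, -0.011 with 10 counts in every library, -0.0715 and -0.0688 with the GC corrections, and between -0.0043 and 0.0282 without 1 library. Mob1a in TAZ-CAMTA1 was between -0.0477 and 0.0184 without 1 library. Lats1 was at -0.00428 and -0.0224 with the GC corrections in TAZ-CAMTA1, -0.0168 and -0.0665 in YAP-TFE3, and with GC and length at 0.0132 in TAZ4SA, -0.0444 in TFE3, 0.0151 in EVsub and -0.0355 in TAZ-CAMTA1 against TAZ4SA. Without 1 library it was between -0.0254 and 0.102 in TFE3 and -0.147 and 0.0153 in EVsub. With GC and length Stk4 in TFE3 was at -0.0131. Mob1b in TAZ-CAMTA1 against TAZ4SA, which had been called at 0.53, was then at -0.0393. Lats1 in that contrast had been at 0.28 and was not called. The cause of these shifts was not tested. Depth was not limiting for the members, the lowest of which had 256 counts, and with 3 libraries a group changes near 0.3 on the log2 scale passed or missed the threshold depending on 1 library.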
